A study of Mus musculus with 9 samples.

Results

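The transcripts of the proteasome in the mouse testis are described here, that is, the genes whose symbol follows the pattern Psma to Psmg with a number, which name subunits of the particle, its assembly chaperones, its activators and its inhibitor. Subunits with other symbols, such as Sem1 and Adrm1, are not among these members. The members were chosen by symbol alone (Psmc3ip, a recombination factor that carries the prefix only, was left out) and are 48 of the 38685 genes and loci of the deposited table. RNA of whole testes was sequenced with QuantSeq, which reads polyadenylated transcripts near their 3′ end, from C57BL/6 males that were Prm2+/+, Prm2+/- or Prm2-/- (3 males per genotype). The Prm2 allele comes from a line made by CRISPR/Cas9 editing. No treatment was named, and ages of these males are not given in the sources used here. Of the 48 members, 45 had enough counts for a test. The other 3, Psmb8, Psmb9 and Psmb11, did not pass the filter on low counts.

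The proteasome degrades proteins that carry a ubiquitin chain. Its 20S core is a stack of α and β rings, in which Psmb5, Psmb6 and Psmb7 encode the catalytic β subunits, and the 19S regulatory particle recognises, unfolds and feeds in the substrate through a ring of ATPases (Psmc genes) and a set of non-ATPase subunits (Psmd genes). Cells stimulated by interferon replace the catalytic subunits with Psmb8, Psmb9 and Psmb10. Male germ cells have variants of their own: Psma8 encodes an α subunit of spermatocytes that takes the place of Psma7, and Psme4 encodes the activator PA200, which is linked to the degradation of acetylated core histones when histones are removed in spermatids, before protamines such as PRM2 pack the DNA.

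For 40 of the 48 members, RefSeq (GRCm38.p6) held a promoter window of 250 bases before to 50 after the start. The windows of the 3 members whose p-values were lowest in Prm2-/- against Prm2+/+ over all 9 libraries (Psmd13, Psmg4 and Psmb6) and of Psme4, the testis activator, are shown, all from the plus strand, from 5′ to 3′. Capitals mark 1 of the motifs searched on both strands, namely the antioxidant response element TGACNNNGC or the ETS core CCGGAAG. The windows are chr7:140882144-140882443 for Psmd13, chr13:34162714-34163013 for Psmg4, chr11:70525107-70525406 for Psmb6 and chr11:30771525-30771824 for Psme4.
Psmd13: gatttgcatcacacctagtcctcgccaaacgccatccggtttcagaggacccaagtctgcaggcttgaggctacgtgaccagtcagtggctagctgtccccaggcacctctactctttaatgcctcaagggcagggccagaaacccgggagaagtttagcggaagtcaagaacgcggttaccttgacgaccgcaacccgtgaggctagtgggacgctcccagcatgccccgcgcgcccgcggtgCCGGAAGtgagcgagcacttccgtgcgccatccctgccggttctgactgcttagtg
Psmg4: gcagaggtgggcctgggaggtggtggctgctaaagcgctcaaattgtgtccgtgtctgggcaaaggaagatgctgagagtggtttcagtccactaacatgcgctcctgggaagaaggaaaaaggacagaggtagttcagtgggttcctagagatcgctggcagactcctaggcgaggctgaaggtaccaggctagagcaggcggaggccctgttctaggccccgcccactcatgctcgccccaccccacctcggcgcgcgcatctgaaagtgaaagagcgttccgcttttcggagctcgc
Psmb6: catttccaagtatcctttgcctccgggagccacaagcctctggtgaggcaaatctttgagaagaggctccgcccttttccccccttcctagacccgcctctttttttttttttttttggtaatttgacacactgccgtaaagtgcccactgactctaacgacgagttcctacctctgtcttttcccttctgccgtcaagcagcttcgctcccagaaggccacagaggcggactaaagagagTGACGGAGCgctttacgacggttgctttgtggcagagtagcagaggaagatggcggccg
Psme4: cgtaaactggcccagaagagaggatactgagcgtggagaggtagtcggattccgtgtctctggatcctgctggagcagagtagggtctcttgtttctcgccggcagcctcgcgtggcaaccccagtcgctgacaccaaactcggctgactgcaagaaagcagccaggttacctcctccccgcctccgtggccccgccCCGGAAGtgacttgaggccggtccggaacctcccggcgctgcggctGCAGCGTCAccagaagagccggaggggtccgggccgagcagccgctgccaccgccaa

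The capitals of Psmd13 are an ETS core that begins 6 bases before the start, and those of Psmb6 an antioxidant response element that begins 9 bases before it. Psme4 holds both, an ETS core 53 bases and an antioxidant response element 7 bases before the start, the latter on the minus strand, so that the capitals show its reverse complement. Psmg4 holds neither. Over the 40 windows, the ETS core occurred in 14 (35.0%), against 9.93% of the 27025 windows of all genes. The antioxidant response element, the kind of site bound by Nfe2l1 and Nfe2l2, occurred in 6 members (15%), Psmb5, Psmb6, Psmc6, Psmd12, Psmd9 and Psme4, against 14.0% of all windows. CCAAT occurred in 14 (35.0%), against 41.1%, and the cAMP response element TGACGTCA in 0, against 2.03%. These matches are letters in a window and not measured binding sites.

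The recovered counts (the deposited normalized counts multiplied back by the size factor of the sample) summed to 3629929 to 4490411 per library. They come from the coverage estimates of StringTie, so levels are compared between libraries and not between genes. Prm2 was not detectably lower in Prm2-/- (37810 ± 4344 normalized counts) than in Prm2+/+ (33046 ± 5732), so this 3′ read-out does not check the labels, and genotypes are those of the libraries as labelled. Markers of elongating spermatids (9 genes) summed to 218956 to 239086 normalized counts per library and those of macrophages to 279.6 to 385, with 0 genes called by limma or edgeR in any list of germ cell or somatic cell markers (DESeq2 called 1), while Amh and Fshr of the Sertoli cell list were listed at 0 in all libraries. The former sum is mostly Prm1, Tnp1 and Tnp2 and does not show swings of its other genes. Of these, Akap4 had 208, 2133 and 194 in Prm2+/+ replicates 1 to 3, 1935, 1910 and 272 in Prm2+/-, and 2077, 1980 and 2148 in Prm2-/-. Ccna1 of spermatocytes had 6.63 in Prm2+/+ replicate 3, against 644 and 570 in replicates 1 and 2. At an unadjusted p under 0.05, limma picked 6 of these 56 marker genes (10.7%, against 7.33% of all tested genes) between Prm2-/- and Prm2+/+, namely Acta2 and Cnn1 of the 4 peritubular genes, Meiob of spermatocytes, Catsper1 of round spermatids, and Odf2 and Tnp1 of elongating spermatids. Acta2 (LFC -0.27) and Cnn1 (LFC -0.76) of the peritubular cells were lower in every Prm2-/- library than in every Prm2+/+ library, and the part of these cells in the members' values was not tested. Between Prm2+/- and Prm2+/+ it picked 2 of 56, Acta2 and Des (3.57%, against 4.24%), both peritubular, and between Prm2-/- and Prm2+/- 2, Catsper1 and Odf2 (3.57%, against 5.44%). Prm2+/+ replicate 3 stood apart: it was the lowest or the highest of the 9 libraries for 29 of the 45 tested members (64.4%) and for 49.5% of all tested genes, whereas the next library, Prm2-/- replicate 3, was so for 11 members (24.4%). Counts of members, ranges or medians of LFCs for most roles and the values of many members that it moved are therefore also given without this library. It bears on the p-values of Prm2-/- against Prm2+/- as well, since the fit takes 1 spread from all libraries.

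No proteasome member was called differentially expressed in any of the 3 comparisons. A call needed a Benjamini-Hochberg adjusted p under 0.05 in limma and a log2 fold change (LFC, given with its standard error, SE) beyond 0.5, and limma called 0.181% of the 14893 tested genes between Prm2-/- and Prm2+/+, 0.0806% between Prm2+/- and Prm2+/+ and 0.175% between Prm2-/- and Prm2+/-. At an unadjusted p under 0.05, limma picked 4 of 45 members (8.89%) between Prm2-/- and Prm2+/+, against 7.33% of all tested genes. Those 4 were Psmd13, Psmb6, Psmg4 and Psmg2. The median LFC of the 45 members was -0.03, with 19 of them above 0, against 0.02 for all tested genes. EdgeR called 0 members (0.161% of all genes). DESeq2 on the recovered counts called 2, Psmd13 (LFC -3.35, adjusted p = 0.00148) and Psmg4 (LFC 0.77, adjusted p = 0.0398), against 0.88% of all genes, and DESeq2 on the 6 libraries of these genotypes alone, chosen after the data were seen, called Psmd13 only (adjusted p = 0.00806, against 1.04%). Without Prm2+/+ replicate 3, limma still called 0 members (0.3% of all genes), and 5 of 45 (11.1%) had an unadjusted p under 0.05, against 8.37% of all genes. In bulk RNA of a testis, fewer cells of a type and less RNA per cell cannot be told apart.

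**Figure D1:**
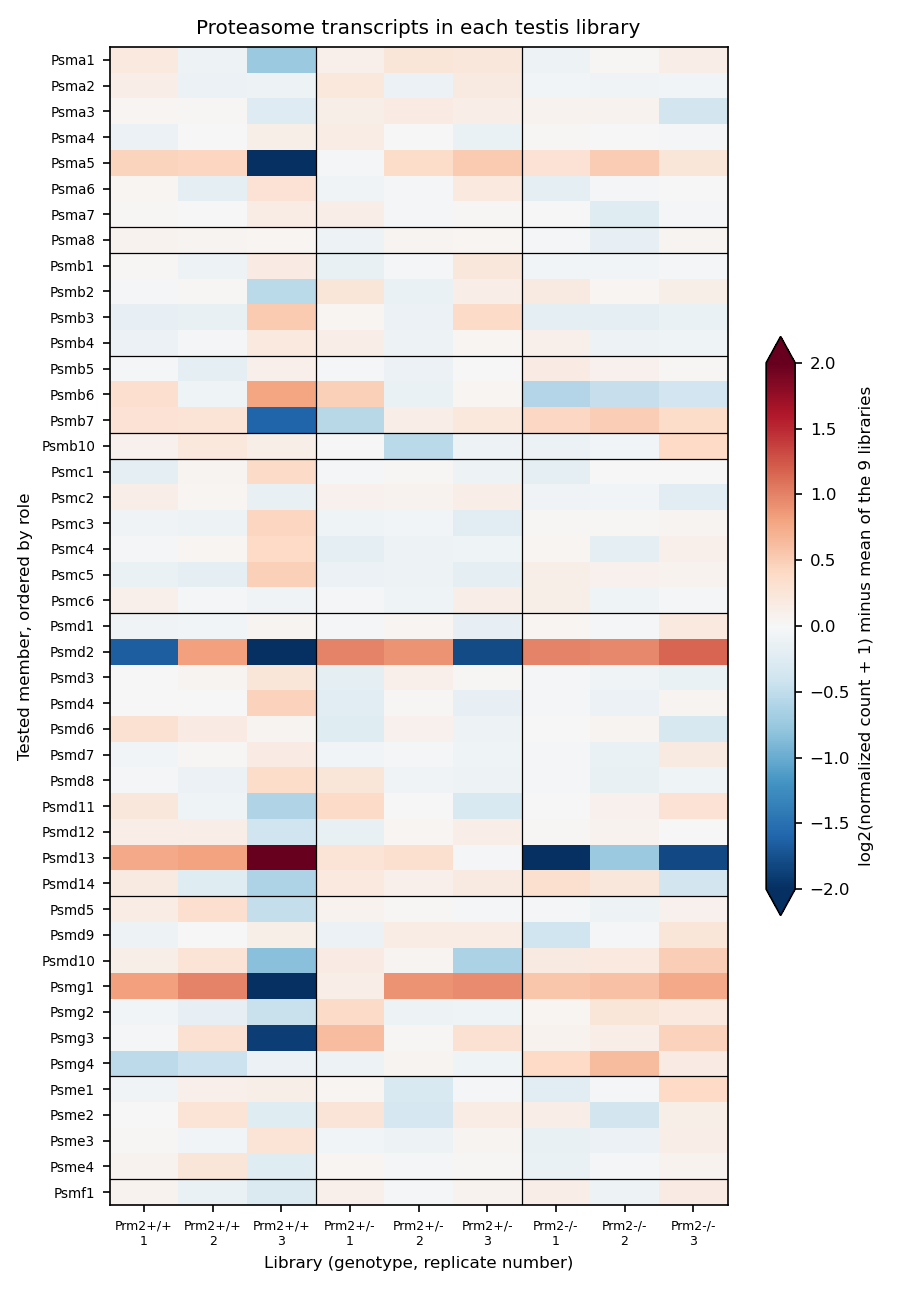
Each row is 1 of the 45 tested members, each column 1 library, and the colour is log2 of the normalized count plus 1 minus the mean of the 9 libraries for that member (scale cut at -2 and 2). Most rows are pale in all libraries, Psmd13 is red in Prm2+/+ and blue in Prm2-/-, Psmd2 is blue in 3 libraries, and Psma5, Psmg1, Psmb7 and Psmg3 are bluest in Prm2+/+ replicate 3.

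Most members varied little between libraries. The median SD of log2(normalized count + 1) within a genotype was 0.19 over the 45 members, against 0.30 over all tested genes, and it was 0.13 against 0.24 without Prm2+/+ replicate 3. The members and all genes were not matched by level, so the lower SD is not read as a trait of the proteasome. For 20 members the highest of the 9 libraries was under 1.5 times the lowest, from Psmc6 (1.17 times) and Psma8 (1.19 times) to Psmc1 (1.48 times). For 6 tested members it was over 3 times the lowest, or the lowest was 0. Between Prm2-/- and Prm2+/+, the 95% interval of the LFC lay within 0.5 of 0 for 25 of the 45 members and within 1 of 0 for 36, so that a change of more than 2-fold was not covered by the interval for those 36. These counts were 28 and 41 without Prm2+/+ replicate 3. The summed level of all 48 members was 25117, 25497 and 27393 in Prm2+/+, 26352, 25594 and 24735 in Prm2+/- and 25339, 25364 and 26201 in Prm2-/-, and the 3 genotypes overlapped.

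**Figure D2:**
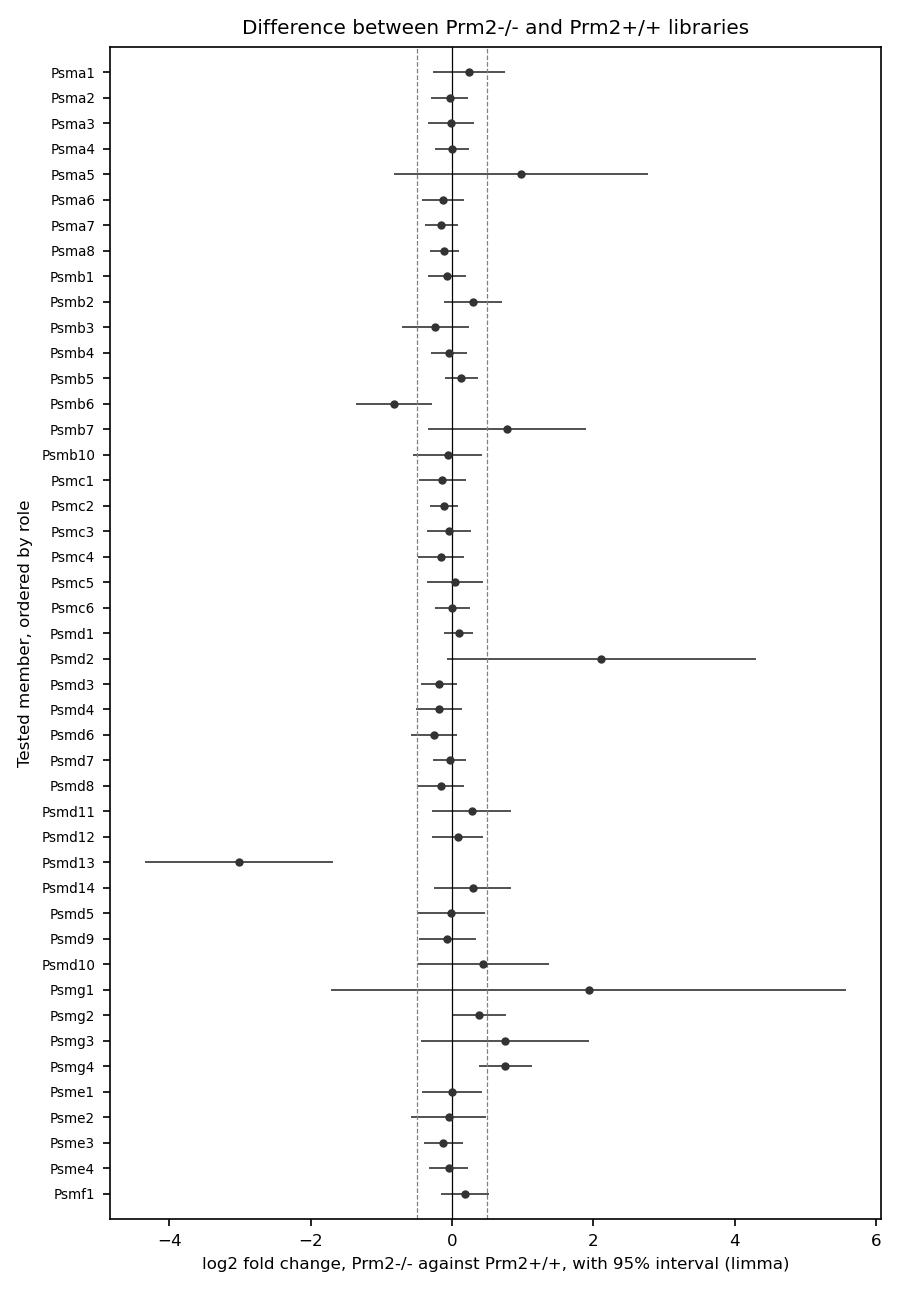
Points are the LFC of each tested member between Prm2-/- and Prm2+/+ (limma, n = 3 each) with the 95% interval, ordered by role, and dashed lines mark -0.5 and 0.5. The intervals of Psmd13, Psmb6, Psmg4 and Psmg2 lie on 1 side of 0, and those of Psmd2, Psma5 and Psmg1 are the widest.

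In the α ring, which gates the entry to the core, LFCs between Prm2-/- and Prm2+/+ ran from -0.15 (Psma7) to 0.98 (Psma5) with a median of -0.01, and without Prm2+/+ replicate 3 from -0.11 (Psma3) to 0.06 (Psma4) with a median of -0.07. Psma1 had 132 ± 41.1 in Prm2+/+, 169.5 ± 9.01 in Prm2+/- and 150.5 ± 12.5 in Prm2-/- testes (normalized counts, mean ± SD, n = 3, as in all values of this form). Its LFC between Prm2-/- and Prm2+/+ went from 0.24 to -0.02 without Prm2+/+ replicate 3. Psma2 had 526 ± 51.5 in Prm2+/+, 572 ± 68.3 in Prm2+/- and 513 ± 4.63 in Prm2-/- testes, and Psma3 had 467 ± 52.2 in Prm2+/+, 534 ± 7.57 in Prm2+/- and 465 ± 77.8 in Prm2-/- testes. Psma4 had 448 ± 38.4 in Prm2+/+, 451 ± 45 in Prm2+/- and 446 ± 6.82 in Prm2-/- testes (LFC -0.01, 95% interval -0.24 to 0.23). Psma6 had 2017 ± 319.9 in Prm2+/+, 1982 ± 210.2 in Prm2+/- and 1838 ± 121 in Prm2-/- testes. Psma7, the subunit that Psma8 can replace, had 344 ± 19.5 in Prm2+/+, 339 ± 20.4 in Prm2+/- and 310.0 ± 27 in Prm2-/- testes, and its Prm2-/- libraries lay below all Prm2+/+ libraries (LFC -0.15, SE 0.10, adjusted p = 0.75 in limma), with an LFC of -0.11 without Prm2+/+ replicate 3. Psma5 had 1 library far from the rest and is described further on.

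Psma8, the spermatocyte form of the α subunit, was among the steadiest members. It had 526, 519 and 513 normalized counts in Prm2+/+ replicates 1 to 3, 464, 519 and 515 in Prm2+/-, and 487, 443 and 516 in Prm2-/-. The genotypes overlapped, and the LFC between Prm2-/- and Prm2+/+ was -0.11 (95% interval -0.31 to 0.10, adjusted p = 0.762 in limma). Without Prm2+/+ replicate 3 it was -0.12 (adjusted p = 0.754 in limma), and the Prm2-/- libraries then lay below the remaining Prm2+/+ libraries. Its share of the summed counts of Psma8 and Psma7 was 56.2% to 61.8% across the libraries. Such a share is compared between libraries only and does not give the proportion of the subunits. The log2 ratio of the pair differed by 0.05 between Prm2-/- and Prm2+/+ (exact permutation test, two-sided, p = 0.5).

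Among the structural β subunits, which close the ring without cutting peptides, LFCs between Prm2-/- and Prm2+/+ ran from -0.23 (Psmb3) to 0.30 (Psmb2), and from -0.01 to 0.12 without Prm2+/+ replicate 3. Psmb1 had 445 ± 39.7 in Prm2+/+, 444 ± 59 in Prm2+/- and 422 ± 5.04 in Prm2-/- testes, and Psmb4 had 851 ± 96.7 in Prm2+/+, 857 ± 66.4 in Prm2+/- and 827 ± 67.3 in Prm2-/- testes. Psmb2 had 97.7 ± 19.7 in Prm2+/+, 117 ± 15.4 in Prm2+/- and 119 ± 5.74 in Prm2-/- testes, with all Prm2-/- libraries above the Prm2+/+ libraries (LFC 0.30, SE 0.18, adjusted p = 0.74 in limma), and its LFC was 0.12 without Prm2+/+ replicate 3. Psmb3 had 321 ± 93.4 in Prm2+/+, 323 ± 58.8 in Prm2+/- and 266 ± 5.1 in Prm2-/- testes, with 63.2% of the 50-base stretches at its 3′ end shared with other loci, pseudogenes among them, so that its counts are uncertain. Its LFC of -0.23 became -0.01 without Prm2+/+ replicate 3, the highest library.

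The LFCs of the constitutive catalytic subunits between Prm2-/- and Prm2+/+ ran from -0.82 (Psmb6) to 0.78 (Psmb7), and from -0.60 to 0.20 without Prm2+/+ replicate 3. Psmb6, the subunit with caspase-like activity, had 906, 678 and 1238 normalized counts in Prm2+/+ replicates 1 to 3, 999.5, 655 and 736 in Prm2+/-, and 478, 522 and 548 in Prm2-/-. The Prm2-/- libraries were the 3 lowest of the 9, the Prm2+/- libraries overlapped those of Prm2+/+, and the spread within Prm2-/- was the smallest. Between Prm2-/- and Prm2+/+ the LFC was -0.82 (SE 0.23, 95% interval -1.36 to -0.29, unadjusted p = 0.00747, adjusted p = 0.495 in limma), and -0.60 without Prm2+/+ replicate 3, the highest library (adjusted p = 0.505 in limma). Between Prm2-/- and Prm2+/- it was -0.60 (adjusted p = 0.886 in limma), and DESeq2 on the 6 libraries of these genotypes alone, chosen after the data were seen, gave -0.62 with an adjusted p of 0.0254. Only 4.43% of the 50-base stretches at the 3′ end of Psmb6 occur elsewhere in the annotated transcripts, in a pseudogene.

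Psmb5, the subunit with chymotrypsin-like activity, had 299.8 ± 30.2 in Prm2+/+, 297 ± 11.2 in Prm2+/- and 327 ± 16.8 in Prm2-/- testes (LFC 0.13, SE 0.10, adjusted p = 0.756 in limma, and LFC 0.20 without Prm2+/+ replicate 3), and 51.2% of its 3′ stretches are shared with a pseudogene. Psmb7, which carries trypsin-like activity, had 369.6, 365 and 99.4 normalized counts in Prm2+/+ replicates 1 to 3, 206, 332 and 352 in Prm2+/-, and 405, 428 and 392 in Prm2-/-. Prm2+/+ replicate 3 and Prm2+/- replicate 1 were low and the other 7 libraries lay close together. Its LFC between Prm2-/- and Prm2+/+ was 0.78 (SE 0.48, adjusted p = 0.746 in limma) and 0.15 without Prm2+/+ replicate 3. Psmb7 overlaps Nek6 on the opposite strand, and 69.2% of its 3′ stretches occur in Nek6 transcripts as well. Nek6 had 32.3, 56.8 and 75.1 normalized counts in Prm2+/+ replicates 1 to 3, 166, 74 and 46.8 in Prm2+/-, and 39.8, 26.4 and 60.2 in Prm2-/-, and was highest in Prm2+/- replicate 1. Whether the counting used the strand is not given in the sources used here, and the part of Nek6 in the values of Psmb7 was not tested. The summed constitutive catalytic subunits were 1576, 1313 and 1666 in Prm2+/+, 1507, 1271 and 1393 in Prm2+/- and 1228, 1276 and 1251 in Prm2-/-, with all Prm2-/- libraries below those of Prm2+/+. This order came from Psmb6 alone (LFC -0.82), whereas the LFCs of Psmb5 and Psmb7 were above 0 (0.13 and 0.78). The whole 20S core summed to 7849, 7239.9 and 8381 in Prm2+/+, 7854, 7405 and 8242 in Prm2+/- and 7230.4, 7246 and 7281 in Prm2-/-, where Prm2-/- libraries lay below those of Prm2+/- but overlapped those of Prm2+/+. With Psmb6 left out of the sum, Prm2-/- and Prm2+/- overlapped too, by a small margin. 

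**Figure D3:**
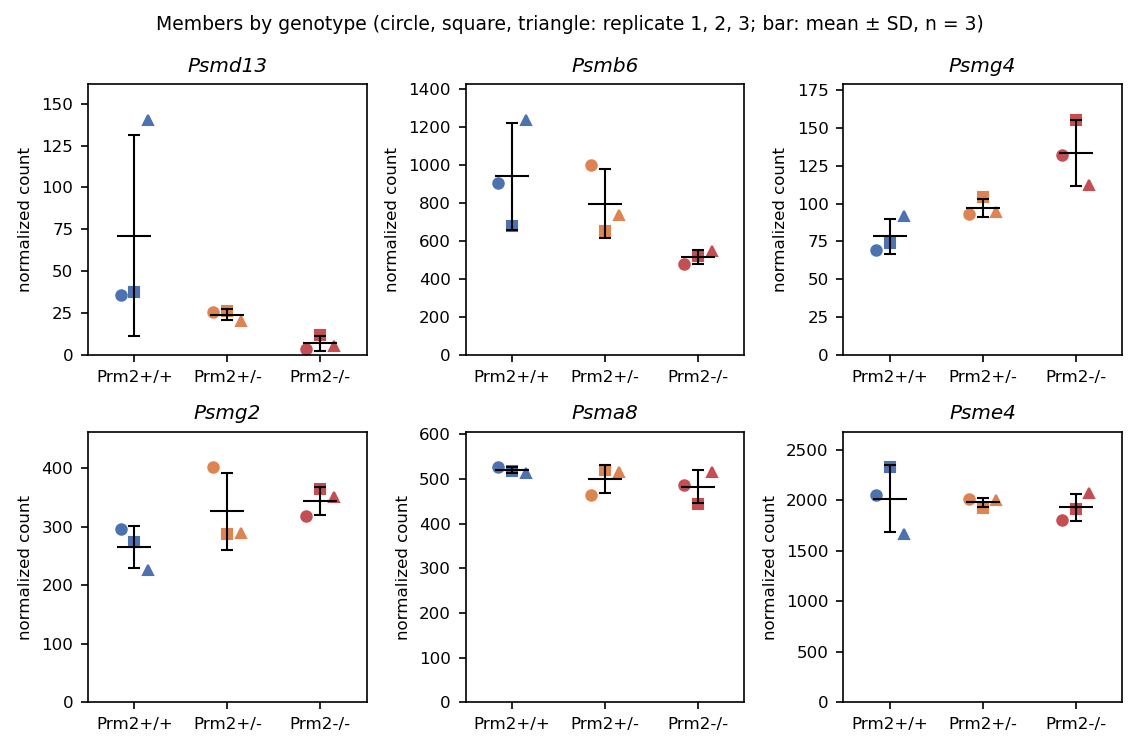
Normalized counts of 6 members in each library, by genotype, with the mean and SD (n = 3) as bars and axes that start at 0. Psmd13 and Psmb6 are lowest and Psmg4 highest in Prm2-/-, while Psma8 and Psme4 overlap between the genotypes.

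Of the inducible catalytic subunits, Psmb10 passed the filter on low counts and Psmb8 and Psmb9 did not. Psmb10 had 32.6 ± 1.53 in Prm2+/+, 25.7 ± 5 in Prm2+/- and 31.6 ± 6.54 in Prm2-/- testes (LFC -0.06, SE 0.21, adjusted p = 0.956 in limma). Psmb8 had 10.5, 6.43 and 3.31 normalized counts in Prm2+/+ replicates 1 to 3, 7.91, 8.22 and 6.19 in Prm2+/-, and 7.24, 9.13 and 0 in Prm2-/-, and Psmb9 had 0, 8.57 and 1.1 normalized counts in Prm2+/+ replicates 1 to 3, 0, 3.65 and 0 in Prm2+/-, and 0, 4.06 and 0 in Prm2-/-. Psmb8 was listed at 0 in 1 library and Psmb9 in 5, so that a ratio or difference that involves them depends on the value added before the logarithm. Psmb11, the subunit of the thymic proteasome, had 0.884 to 2.74 normalized counts across the 9 libraries.

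As a share of the summed normalized counts of the pair, read between libraries only, Psmb10 was 7.82, 8.58 and 24.4% in Prm2+/+, 12.6, 5.71 and 7.23% in Prm2+/-, and 6.29, 6.22 and 9.07% in Prm2-/- of Psmb10 plus Psmb7. The value of Prm2+/+ replicate 3 was far above the rest, and it is the library in which Psmb7 was low. Over 6 pairs and 3 comparisons, the lowest p of the exact permutation test of the log2 ratio was 0.3, for Psmb10 to Psmb7 between Prm2-/- and Prm2+/+ (-0.84), and the lowest adjusted p was 0.7. With 3 libraries against 3, that test cannot go below 0.1.

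**Figure D4:**
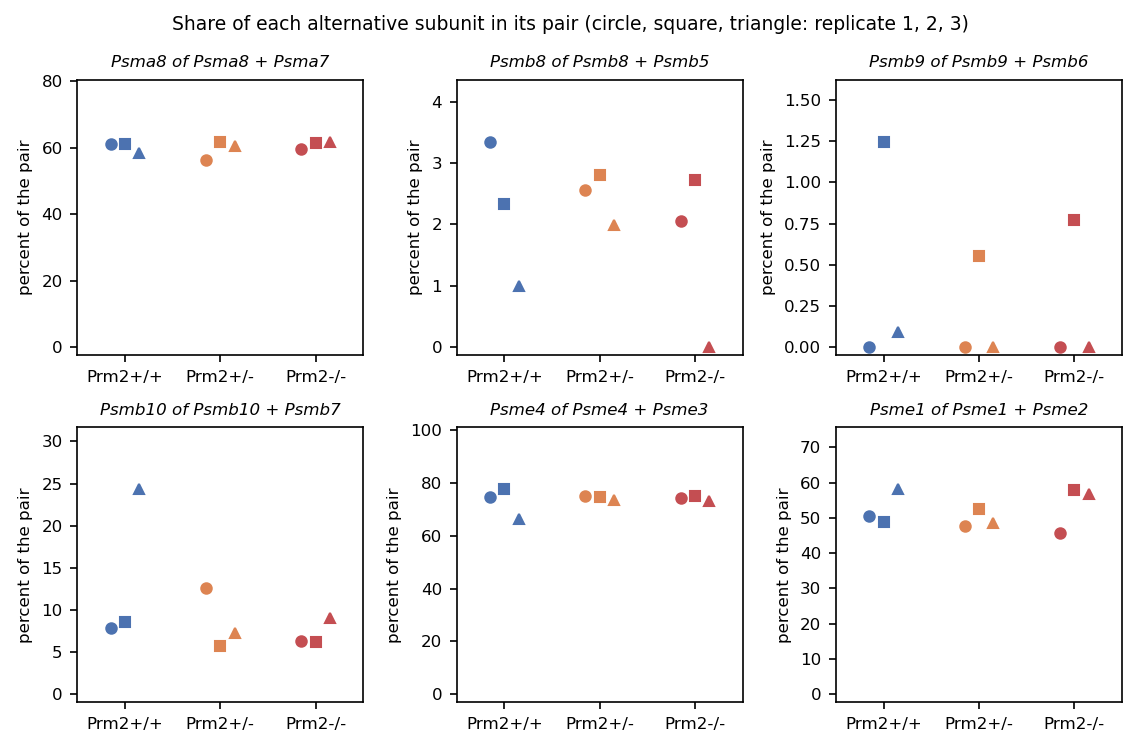
Share of the alternative subunit or activator in the summed normalized counts of its pair, in percent, for each library and genotype, to be compared between libraries and not as proportions of the subunits. Values are 56.2% to 61.8% for Psma8, 66.3% to 77.8% for Psme4, 0% to 3.35% for Psmb8 and 0% to 1.25% for Psmb9, and Prm2+/+ replicate 3 stands apart for Psmb10.

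The 6 ATPases of the 19S base, which unfold the substrate, had LFCs between Prm2-/- and Prm2+/+ from -0.16 (Psmc4) to 0.04 (Psmc5), and without Prm2+/+ replicate 3 from -0.20 (Psmc2) to 0.26 (Psmc5). Psmc1 had 540.3 ± 108 in Prm2+/+, 491 ± 21.3 in Prm2+/- and 485 ± 35.2 in Prm2-/- testes, and Psmc3 had 3997 ± 867 in Prm2+/+, 3418 ± 199 in Prm2+/- and 3808 ± 53.3 in Prm2-/- testes. Between Prm2-/- and Prm2+/+, the LFCs of Psmc1 and Psmc3 went from -0.14 and -0.05 to 0.01 and 0.12 without Prm2+/+ replicate 3. Psmc4 had 226 ± 36.4 in Prm2+/+, 187 ± 6.65 in Prm2+/- and 201 ± 21.3 in Prm2-/- testes, and its Prm2+/- libraries lay below those of Prm2+/+ (LFC -0.26, SE 0.14, adjusted p = 0.842 in limma), with an LFC of -0.13 without Prm2+/+ replicate 3. Psmc6, with the smallest ratio of highest to lowest library of all tested members, had 232 ± 14.7 in Prm2+/+, 234 ± 19.2 in Prm2+/- and 232 ± 16.8 in Prm2-/- testes.

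Psmc5 had 399, 384 and 614 normalized counts in Prm2+/+ replicates 1 to 3, 403, 407 and 383 in Prm2+/-, and 475, 468 and 459 in Prm2-/-. The highest value was that of Prm2+/+ replicate 3, and all Prm2-/- libraries lay above the other Prm2+/+ libraries and above those of Prm2+/-. Its LFC between Prm2-/- and Prm2+/+ was 0.04 (unadjusted p = 0.822, adjusted p = 0.966 in limma) and became 0.26 without Prm2+/+ replicate 3 (unadjusted p = 0.00749, adjusted p = 0.424 in limma). Against Prm2+/- the LFC was 0.23 (unadjusted p = 0.21, adjusted p = 0.977 in limma), and with that library left out of the fit the same LFC had an unadjusted p = 0.00706, adjusted p = 0.458 in limma.

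Psmc2 was the ATPase with the smallest p-value over all 9 libraries, whereas without Prm2+/+ replicate 3 that of Psmc5 was smaller. Psmc2 had 2524, 2355 and 2078 normalized counts in Prm2+/+ replicates 1 to 3, 2441, 2407 and 2529 in Prm2+/-, and 2192, 2213 and 1981 in Prm2-/-. The Prm2-/- libraries were below all Prm2+/- libraries and overlapped those of Prm2+/+. The LFC between Prm2-/- and Prm2+/- was -0.21 (95% interval -0.41 to -0.01, unadjusted p = 0.0405, adjusted p = 0.891 in limma). Between Prm2-/- and Prm2+/+ it was -0.12 (95% interval -0.32 to 0.08), and -0.20 without Prm2+/+ replicate 3.

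Among the 11 non-ATPase subunits of the 19S particle, Psmd13 differed most. Psmd13 (ENSMUSG00000025487, chromosome 7 of GRCm38, 140881968 to 140898643) encodes a subunit of the lid. It had 36.1, 37.5 and 140.3 normalized counts in Prm2+/+ replicates 1 to 3, 25.7, 26.5 and 20.3 in Prm2+/-, and 3.62, 12.2 and 5.28 in Prm2-/-. The libraries lay in the order of the genotypes without overlap, with the highest value in Prm2+/+ replicate 3 and recovered counts of only 4, 12 and 5 in Prm2-/-. The LFC between Prm2-/- and Prm2+/+ was -3.01 (SE 0.58, 95% interval -4.35 to -1.68, unadjusted p = 0.000817, adjusted p = 0.223 in limma). Without Prm2+/+ replicate 3 it was -2.38 (adjusted p = 0.149 in limma). It was -1.23 between Prm2+/- and Prm2+/+ (adjusted p = 0.842 in limma), and -0.60 without that library. Between Prm2-/- and Prm2+/- it was -1.78 (adjusted p = 0.870 in limma). At its 5′ end Psmd13 overlaps Sirt3 on the opposite strand by 342 bases, at the promoter window shown above, while 2.88% of its 3′ stretches occur elsewhere, in a pseudogene. Sirt3 had 79.8, 81.4 and 233 normalized counts in Prm2+/+ replicates 1 to 3, 84, 225 and 261 in Prm2+/-, and 221, 211 and 213 in Prm2-/-, and its part in the values of Psmd13 was not tested.

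Apart from Psmd13 and Psmd2, which is described further on, the subunits of this group had LFCs of -0.26 (Psmd6) to 0.29 (Psmd14) between Prm2-/- and Prm2+/+, and without Prm2+/+ replicate 3 of -0.32 (Psmd6) to 0.13 (Psmd1). Psmd1 had 910.5 ± 43.2 in Prm2+/+, 889 ± 64.2 in Prm2+/- and 972 ± 78.4 in Prm2-/- testes, and 56.8% of its 3′ stretches occur in another annotated locus. Psmd3 had 492 ± 43.8 in Prm2+/+, 451 ± 48.7 in Prm2+/- and 431 ± 13.4 in Prm2-/- testes, and Psmd6 had 332 ± 28.7 in Prm2+/+, 278 ± 31.5 in Prm2+/- and 278 ± 38.2 in Prm2-/- testes. For both, the Prm2-/- libraries lay below those of Prm2+/+ (LFC -0.19 and -0.26, adjusted p = 0.739 and 0.721 in limma), with LFCs of -0.11 and -0.32 without Prm2+/+ replicate 3. For Psmd6 the nearest libraries were almost equal, at 304.43 in Prm2-/- replicate 2 and 304.97 in Prm2+/+ replicate 3. Psmd4, a receptor for ubiquitin, had 1065 ± 207 in Prm2+/+, 874 ± 82.2 in Prm2+/- and 926 ± 56.5 in Prm2-/- testes, with an LFC of -0.27 between Prm2+/- and Prm2+/+ (adjusted p = 0.842 in limma) and -0.12 without Prm2+/+ replicate 3.

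The other members that encode lid subunits overlapped between Prm2-/- and Prm2+/+. Psmd7, the partner of the deubiquitinase Psmd14, had 793 ± 64 in Prm2+/+, 738 ± 12.6 in Prm2+/- and 775 ± 86.7 in Prm2-/- testes, and Psmd14 had 213 ± 58.1 in Prm2+/+, 273 ± 9.03 in Prm2+/- and 260.1 ± 62.3 in Prm2-/- testes (LFC 0.29, and 0.10 without Prm2+/+ replicate 3). Psmd8 had 1676 ± 321 in Prm2+/+, 1614 ± 213 in Prm2+/- and 1485 ± 56.5 in Prm2-/- testes (LFC -0.16, and -0.01 without Prm2+/+ replicate 3). The lid subunits Psmd11 and Psmd12 had mean levels that differed by little beside their spread. Psmd11 had 344 ± 96.2 in Prm2+/+, 387 ± 92.1 in Prm2+/- and 406 ± 43.7 in Prm2-/- testes, and Psmd12 had 306 ± 60 in Prm2+/+, 313 ± 30.3 in Prm2+/- and 318 ± 7.55 in Prm2-/- testes. The LFCs of Psmd11 and Psmd12 went from 0.27 and 0.08 to 0.05 and -0.10 without Prm2+/+ replicate 3, and the Prm2-/- libraries of Psmd12 then lay below the remaining Prm2+/+ libraries.

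The median LFC of the 7 assembly chaperones between Prm2-/- and Prm2+/+ was 0.44, with 5 above 0, and without Prm2+/+ replicate 3 it was 0.08, with 4 above 0. Limma called 0 of the 7 (0.181% of all tested genes) and DESeq2 called 1 (0.88% of all genes), and 2 of them (Psmg4 and Psmg2) had an unadjusted p under 0.05 in limma, against 7.33% of all genes. Their summed level was 765, 799 and 580.1 in Prm2+/+, 891, 828 and 827 in Prm2+/- and 801, 910.2 and 931 in Prm2-/-, with all Prm2-/- and all Prm2+/- libraries above those of Prm2+/+, and with Prm2+/+ replicate 3 the lowest. The nearest libraries were 800.6 in Prm2-/- replicate 1 and 799.4 in Prm2+/+ replicate 2. With Psmg4 left out of the sum, both Prm2-/- and Prm2+/- overlapped Prm2+/+. Psmg4 (ENSMUSG00000071451, chromosome 13, 34162964 to 34178173) encodes a chaperone of the α ring that works in a pair with the product of Psmg3. Psmg4 had 69.4, 73.9 and 91.7 normalized counts in Prm2+/+ replicates 1 to 3, 92.9, 104 and 94.5 in Prm2+/-, and 132, 155 and 112 in Prm2-/-. Its values were ordered by genotype with no overlap, lowest in Prm2+/+ and highest in Prm2-/-, and 0 of its 3′ stretches occur in another gene. The LFC between Prm2-/- and Prm2+/+ was 0.76 (SE 0.16, 95% interval 0.38 to 1.13, unadjusted p = 0.00165, adjusted p = 0.319 in limma), and 0.87 without Prm2+/+ replicate 3 (adjusted p = 0.134 in limma). Prm2+/- against Prm2+/+ gave 0.32 (adjusted p = 0.842 in limma), and Prm2-/- against Prm2+/- gave 0.44 (adjusted p = 0.878 in limma).

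Psmg2, which works in a pair with Psmg1 in building the α ring, had 296, 274 and 227 normalized counts in Prm2+/+ replicates 1 to 3, 402, 289 and 289 in Prm2+/-, and 318, 364 and 352 in Prm2-/-. The Prm2-/- libraries lay above those of Prm2+/+, whereas Prm2+/- replicate 1 was the highest of all. Psmg2 had an LFC of 0.38 between Prm2-/- and Prm2+/+ (SE 0.16, unadjusted p = 0.0480, adjusted p = 0.677 in limma), and 0.27 without Prm2+/+ replicate 3. The chaperones of the 19S base, Psmd5, Psmd9 and Psmd10, overlapped between Prm2-/- and Prm2+/+. Psmd5 had 63.6 ± 17.5 in Prm2+/+, 62.8 ± 2.59 in Prm2+/- and 61.3 ± 3.86 in Prm2-/- testes, Psmd9 had 181 ± 14.8 in Prm2+/+, 189 ± 19.8 in Prm2+/- and 176 ± 38.8 in Prm2-/- testes and Psmd10 (gankyrin) had 8.21 ± 3.34 in Prm2+/+, 8.11 ± 2.46 in Prm2+/- and 10.9 ± 1.51 in Prm2-/- testes. When Prm2+/+ replicate 3 was left out, the LFC of Psmd5 went from -0.01 to -0.25, with its Prm2-/- libraries below the remaining Prm2+/+ libraries, and that of Psmd10 from 0.44 to 0.10.

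Of the activators, Psme4 (PA200) had 2053, 2327 and 1662 normalized counts in Prm2+/+ replicates 1 to 3, 2009, 1923 and 1997 in Prm2+/-, and 1801, 1913 and 2072 in Prm2-/-. The genotypes overlapped, and both the highest and the lowest value were found in Prm2+/+. The LFC between Prm2-/- and Prm2+/+ was -0.05 (95% interval -0.33 to 0.23, adjusted p = 0.927 in limma), and -0.18 without Prm2+/+ replicate 3 (adjusted p = 0.607 in limma). Psme3, the nuclear PA28γ activator, had 737 ± 93.7 in Prm2+/+, 678 ± 37.4 in Prm2+/- and 676 ± 75.3 in Prm2-/- testes, and the share of Psme4 in Psme4 plus Psme3 was 66.3% to 77.8%. Psme1 and Psme2 encode the PA28 activator that interferon induces. Psme1 had 63.2 ± 4.57 in Prm2+/+, 56.9 ± 6.77 in Prm2+/- and 64.2 ± 14.4 in Prm2-/- testes, and Psme2 had 57.7 ± 10.6 in Prm2+/+, 58.6 ± 12.3 in Prm2+/- and 55.8 ± 10.5 in Prm2-/- testes, with 55.2% of the 3′ stretches of Psme2 shared with its copies. The inhibitor Psmf1 had 40.2 ± 5.15 in Prm2+/+, 45.1 ± 1.91 in Prm2+/- and 45.7 ± 4.45 in Prm2-/- testes (LFC 0.18, SE 0.15, adjusted p = 0.761 in limma), with an LFC of 0.10 without Prm2+/+ replicate 3.

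A few members had whole libraries far below the rest. Psmd2 (chromosome 16, 20651652 to 20663414), a 19S subunit that binds ubiquitin-like domains, had 240.4, 1328 and 143 normalized counts in Prm2+/+ replicates 1 to 3, 1495, 1400.3 and 216 in Prm2+/-, and 1492, 1466 and 1687 in Prm2-/-. It was low in Prm2+/+ replicates 1 and 3 and in Prm2+/- replicate 3, and the other 6 libraries, with all of Prm2-/-, lay close together. Its LFC in Prm2-/- against Prm2+/+ was 2.11 (SE 0.95, 95% interval -0.08 to 4.30, adjusted p = 0.696 in limma), and 1.45 without Prm2+/+ replicate 3. Of its 3′ stretches, 31.5% occur in Gm5422, a transcribed pseudogene. The marker Akap4 was low in the same libraries as Psmd2, and a link between them was not tested. The summed non-ATPase subunits, of which Psmd2 is one, came to 6246, 7132 and 6940.2 in Prm2+/+, 7521, 7349 and 5762 in Prm2+/- and 7382, 7137 and 7705 in Prm2-/-, and all Prm2-/- libraries lay above those of Prm2+/+. The nearest libraries were 7137 in Prm2-/- and 7132 in Prm2+/+. With Psmd2 left out of the sum, Prm2-/- and Prm2+/+ overlapped. Of the 11 subunits, 5 had an LFC above 0 between these genotypes, with a median of -0.04.

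**Figure D5:**
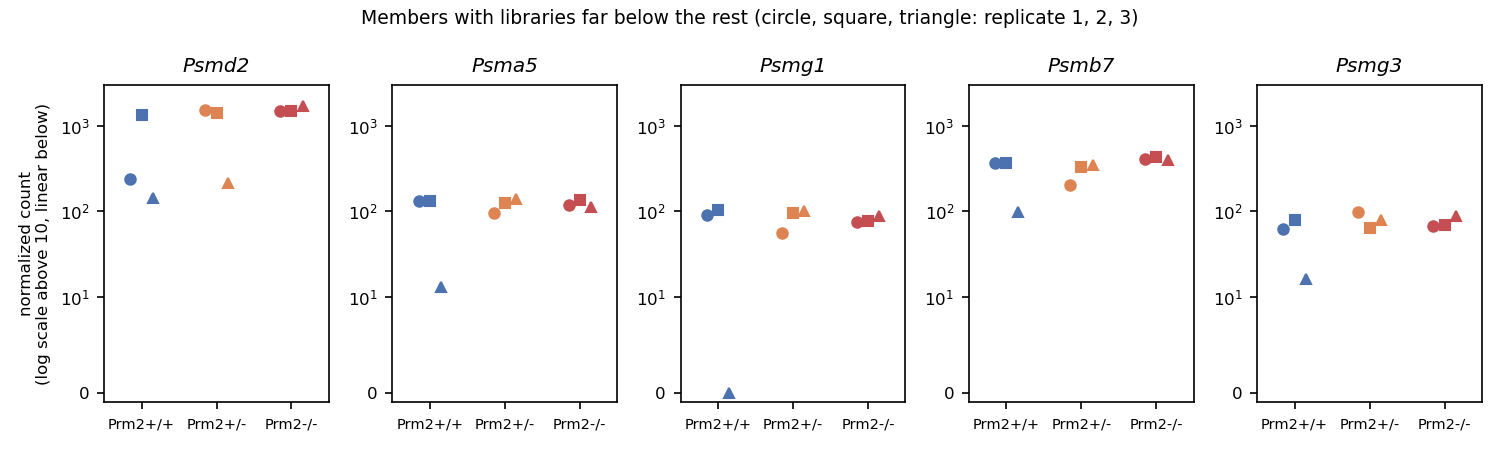
Normalized counts of 5 members in each library (log scale above 10, linear below). Prm2+/+ replicate 3 is the lowest point in all 5 panels, at 0 for Psmg1, and Psmd2 has 3 low libraries.

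In Psma5, Psmg1 and Psmg3, 1 library decided the difference. Psma5 had 132, 131 and 13.3 normalized counts in Prm2+/+ replicates 1 to 3, 94.9, 124 and 139 in Prm2+/-, and 119, 137 and 114 in Prm2-/-. Only Prm2+/+ replicate 3 was low, and the LFC between Prm2-/- and Prm2+/+ went from 0.98 (adjusted p = 0.759 in limma) to -0.10 without it. Psmg1 had 91.2, 103 and 0 normalized counts in Prm2+/+ replicates 1 to 3, 56.4, 96.8 and 99.8 in Prm2+/-, and 76.1, 77.1 and 87.6 in Prm2-/-, so that it was listed at 0 in the same library, and its fitted LFC is no measure of a fold change. Without that library it was -0.27 (adjusted p = 0.796 in limma). Psmg3 had 62.7, 79.3 and 16.6 normalized counts in Prm2+/+ replicates 1 to 3, 97.9, 64.9 and 78.6 in Prm2+/-, and 67, 70 and 87.6 in Prm2-/-, with an LFC of 0.75 that became 0.08 without Prm2+/+ replicate 3. By the rule for members at 2 separate levels (a gap above 2 on the log2 scale that is wider than the range on either side), 3 of 45 members (6.67%) were found, Psma5, Psmd2 and Psmg1, against 13.2% of all tested genes. For Psma5, 62.5% of the 3′ stretches occur in pseudogenes, and for Psmg1 and Psmg3 none do.

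Counted by overlap, 5 members were higher in every Prm2-/- library than in every Prm2+/+ library (Psmg2, Psmb7, Psmb2, Psmg4 and Psmd2; 11.1% of 45, against 6.92% of all tested genes) and 5 were lower (Psma7, Psmd13, Psmb6, Psmd3 and Psmd6; 11.1%, against 7.1%). Without Prm2+/+ replicate 3, where fewer libraries make a separation easier, 9 were higher (20%, against 13.6%), with Psmb5, Psmc3, Psmc5 and Psmd1 beside those 5, and 10 lower (22.2%, against 14.3%), with Psma8, Psmc2, Psmd12, Psmd5 and Psmg1 beside those 5. Over all libraries, some separations were narrow, as for Psmd6. Psmb2 had 112.64 in Prm2-/- replicate 2 and 111.45 in Prm2+/+ replicate 2. Psma7 had 328.74 in Prm2-/- replicate 1 and 331.13 in Prm2+/+ replicate 2. In the order Prm2+/+, Prm2+/-, Prm2-/- with no overlap between neighbours, Psmg4 was ordered upwards (1 of 45 members, against 0.168% of all genes) and Psmd13 downwards (1 of 45, against 0.222%). These members were singled out by that order, so it is a description and not a test.

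Between Prm2+/- and Prm2+/+, which answers whether 1 allele alone was accompanied by a difference and shares its Prm2+/+ libraries with the first comparison, 0 of 45 members had an unadjusted p under 0.05 in limma, against 4.24% of all tested genes, and limma called 0, as did edgeR (0.0671% of all genes), DESeq2 (0.396%) and DESeq2 on the 6 libraries of these genotypes alone (0.369%). The median LFC of the members was 0.01, with 24 above 0, as over all genes (0.01). Members that did not overlap were Psma3 and Psmg4 (higher, 4.44%, against 4.88% of all genes) and Psmc4, Psmd13 and Psmb10 (lower, 6.67%, against 4.56%). Without Prm2+/+ replicate 3, 3 members were higher (6.67%, against 9.84%) and 8 lower (17.8%, against 9.51%), and Psmg4 alone had an unadjusted p under 0.05 (4.21% of all genes). The 95% interval lay within 0.5 of 0 for 20 members and within 1 for 39, and without Prm2+/+ replicate 3 for 27 and 42.

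Between Prm2-/- and Prm2+/-, a comparison that shares its Prm2-/- libraries with the first and its Prm2+/- libraries with the second, 4 members had an unadjusted p under 0.05 in limma (Psmd13, Psmg4, Psmb6 and Psmc2; 8.89%, against 5.44% of all genes). The spread in this fit is taken from all 9 libraries, and without Prm2+/+ replicate 3 there were 7 (15.6%, against 8.29% of all genes), with Psmc5, Psmc3 and Psmb7 beside those 4, while limma still called 0 (0.313% of all genes). The lowest adjusted p of a member in limma was 0.870, for Psmd13 (0.288 without that library), and edgeR (0.154% of all genes) and DESeq2 on all 9 libraries (0.739%) called 0. DESeq2 on the 6 libraries of these genotypes alone called 1 member, Psmb6, against 1.24% of all genes. Psmb7, Psmc3, Psmd10, Psmc5, Psmg4 and Psmb5 were higher in every Prm2-/- library (6 members, 13.3%, against 7.47% of all genes), and Psmc2, Psmd13, Psmb6, Psmb3 and Psma3 were lower (5 members, 11.1%, against 7.25%). Psmd10 had recovered counts of 11, 10 and 12 in Prm2-/- and 10, 10 and 6 in Prm2+/-. Its separation thus rests on size factors between libraries with equal counts.

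Genes that work with the proteasome were read from a list, together with the subunits Sem1 and Adrm1. The list also held ubiquitin receptors, shuttle factors, Vcp and its cofactors, ubiquitin genes and regulators. Of its genes, 28 were found and 26 tested. Limma, edgeR and DESeq2 called 0 of the 26 in each comparison, and the median LFCs were 0.01 between Prm2-/- and Prm2+/+, 0.01 between Prm2+/- and Prm2+/+ and -0.02 between Prm2-/- and Prm2+/-. At an unadjusted p under 0.05 limma had 2 (7.69%, against 7.33% of all tested genes), 0 (against 4.24%) and 4 of them (15.4%, against 5.44%). Pomp, the maturation factor of the 20S core, had 54.2, 62.2 and 35.4 normalized counts in Prm2+/+ replicates 1 to 3, 47.5, 51.2 and 41.5 in Prm2+/-, and 68.8, 81.2 and 88.7 in Prm2-/-, with all Prm2-/- libraries above the other 6 (LFC 0.67, unadjusted p = 0.0162, adjusted p = 0.587 in limma). The lowest value of Pomp, which enters this LFC, was that of Prm2+/+ replicate 3. Uchl5, a deubiquitinase of the 19S particle, had 314, 324 and 347 normalized counts in Prm2+/+ replicates 1 to 3, 291, 306 and 273 in Prm2+/-, and 264, 252 and 290.4 in Prm2-/-, with all Prm2-/- libraries below those of Prm2+/+ (LFC -0.29, unadjusted p = 0.0177, adjusted p = 0.596 in limma). Against Prm2+/-, Pomp, Txnl1, Nploc4 and Rps27a had an unadjusted p under 0.05. Rps27a, a gene for ubiquitin fused to a ribosomal protein, was low in Prm2+/- replicates 1 and 3, with 1135, 1059.8 and 895 normalized counts in Prm2+/+ replicates 1 to 3, 481, 1103 and 291 in Prm2+/-, and 1311, 1159.9 and 1167 in Prm2-/-. In the list of interferon and antigen presentation genes, limma, edgeR and DESeq2 called 0 of 10 tested genes in each comparison (at an unadjusted p under 0.05, limma had 0 between Prm2-/- and Prm2+/+ and 1 in each of the other comparisons), with a median LFC of 0.13 between Prm2-/- and Prm2+/+, and Tap2 and Ciita were listed at 0 in all libraries.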

How the data were processed

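Testis RNA of 9 males was analysed from the deposited table. The authors trimmed reads with Trim Galore 0.4.5, mapped them to GRCm38 with HISAT2 2.1, made gene counts with StringTie 1.3.3 and its count script, and removed pseudogenes. The deposited values are a signal, namely counts that the authors divided by 1 size factor per sample. All values (100%) were whole multiples, within 0.01, of 1 step per sample, so the recovered counts could be used for filters and count tests, and 0 columns lacked a sample. Since StringTie derives counts from coverage, a value of 0 may be a failed estimate.

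Members were found by symbol, and all 48 matched GENCODE M21 (GRCm38). Overlaps with other genes, and stretches of 50 bases in the last 500 bases of the longest protein-coding transcript of each member that occur in another gene, were taken from it. Limma 3.58.1 (lmFit, eBayes with trend; R 4.3.3) was fitted to log2(normalized count + 1) of the 14893 genes kept by filterByExpr, with genotype as the only term and all 9 samples, which share 1 estimate of the spread. Fold changes are on this scale. Benjamini-Hochberg adjustment ran over all tested genes. EdgeR 4.0.16 and DESeq2 1.42.0 were alternatives, as were the scaling (TMM), the pseudocount, filters, a replicate block and leaving out each sample. Scripts were tested on simulated data. The members, roles and lists were chosen with earlier results of these data known.

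The members named with full values were those with an unadjusted p under 0.05, the 3 largest rises and falls, Psma8, Psme4, Psmb8, Psmb9, Psmb10 and members at 2 levels. Others with full statistics (such as Psmb7, Psmc5 and Psmg3), Sirt3, Nek6, Pomp, Uchl5, Rps27a and the single marker genes were chosen after their values were seen.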

Additional observations from a re-analysis of the deposited data

How the results depend on the processing

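The count of called members was 0 in each comparison under TMM scaling, pseudocounts of 0.5 and 5, both other filters, the fit of 6 samples, the replicate block, edgeR and each left-out library (lowest and highest 0). With DESeq2 it was 2 between Prm2-/- and Prm2+/+ (1 with only the 6 samples compared, a setting added after the data were seen), and with only the 6 samples 1 between Prm2-/- and Prm2+/-. The cause was not tested. No pairing by replicate number was seen: deviations of same-numbered libraries correlated at -0.0365 to 0.0423, and the block changed no call. Whether samples of the same number were handled together is not given in the sources used here, and this check cannot exclude it.

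Among the members that the rule for full values named in a comparison, directions of LFCs turned only when a library was left out. The ranges over these fits were, between Prm2-/- and Prm2+/+, -0.10 to 1.51 for Psma5, -0.22 to 0.0336 for Psmb10, -0.18 to 0.0601 for Psme4 and -0.27 to 3.08 for Psmg1; between Prm2+/- and Prm2+/+, -0.16 to 1.46 for Psma5, -0.15 to 0.10 for Psme4 and -0.24 to 3.11 for Psmg1; and between Prm2-/- and Prm2+/-, -0.10 to 0.18 for Psma5, -0.10 to 0.00867 for Psma8, -0.0901 to 0.0108 for Psme4 and -0.29 to 0.11 for Psmg1. Psma5 and Psmg1 against Prm2+/+ turned without Prm2+/+ replicate 3. Members outside these ranges turned without that library too, such as Psma1, Psmc1, Psmc3 and Psmd12 between Prm2-/- and Prm2+/+. Between Prm2+/- and Prm2+/+, the LFC of Psmb7 went from 0.28 to -0.35. Differences of log2 ratios of subunit pairs, whose exact permutation test cannot go below 0.1, turned as well, with ranges between Prm2-/- and Prm2+/+ of -0.00996 to 0.0807 for Psma8 to Psma7, -1.45 to 0.19 for Psmb8 to Psmb5, -0.61 to 1.28 for Psmb9 to Psmb6, -0.0734 to 0.27 for Psme1 to Psme2 and -0.16 to 0.25 for Psme4 to Psme3; between Prm2+/- and Prm2+/+ of -0.10 to 0.0641 for Psma8 to Psma7, -0.20 to 0.57 for Psmb8 to Psmb5, -1.35 to 0.64 for Psmb9 to Psmb6 and -0.13 to 0.28 for Psme4 to Psme3; and between Prm2-/- and Prm2+/- of -0.019 to 0.15 for Psma8 to Psma7, -0.48 to 0.14 for Psmb10 to Psmb7, -0.13 to 1.51 for Psmb9 to Psmb6 and -0.0649 to 0.00848 for Psme4 to Psme3. With a pseudocount of 0.5, the difference for Psmb9 to Psmb6 between Prm2-/- and Prm2+/+ was -0.067 in place of 0.16. Values listed at 0 make the differences for Psmb8 and Psmb9 depend on the pseudocount, so they are no measure of a fold change. Members with few counts (Psmd13 in Prm2-/-, Psmd10, Psmb8, Psmb9 and Psmb11) are limited by depth.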
